A study of Mus musculus with 8 samples.

Results

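Genes linked to the uptake of fatty acids and lipoprotein lipid were compared between fasted and fed mouse brain. They are called uptake genes below, but not all of them bring lipid into cells. Angptl4 encodes an inhibitor of lipoprotein lipase and Apod a lipid-binding lipocalin. Their RNA levels do not measure uptake. The set holds 10 genes chosen by name, and every non-control probe that the array names for one of them was taken, which gave 14 probes of 39429 on the array. In 4 of these genes (Lpl, Vldlr, Fabp3 and Apod) there were 2 probes, and 6 genes had 1. All 14 probes passed the filter on dim probes (well above background on at least 4 of the 8 arrays), and 13 of them were well above background on all 8.

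Mice of the fasted group had no food for 17 h, and mice of the fed group were fed for 17 h. Total RNA of dissected brain was read in a single Cy3 colour on 8 arrays, 4 of fasted brain and 4 of fed brain. The labels used here name no strain, sex or age and do not say whether a sample came from 1 mouse or a pool, and the p-values therefore reflect variation among these 8 samples, some of which may be technical. The labels name the tissue only as brain, measured in bulk with all its cell types together, so more cells of a type and more RNA per cell cannot be told apart in any value below.

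Circulating triglyceride is carried in lipoproteins, and lipoprotein lipase at the vessel wall frees its fatty acids. Lipoprotein receptors take up whole particles, membrane proteins such as CD36 and the fatty acid transport proteins pass fatty acids across the cell surface, and the fatty acid-binding proteins carry them in the cytosol. The brain's vessels form a barrier, and there the transporter encoded by Mfsd2a carries docosahexaenoic acid in the form of lysophosphatidylcholine.

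Each array had 24567 to 27220 probes well above background, and its mean correlation with the other arrays of its group, taken across probes, was 0.995 to 0.997. As a check of the tissue, 6 of 6 neuron markers were measured; limma called 0 of them in either direction, 1 had an unadjusted p under 0.05, and Nefl passed with the replicate number as a block (adjusted p = 0.0447). Microglial markers were lower in fasted brain, with 0 of 7 rising and 4 falling (Tmem119, Aif1, P2ry12 and Csf1r) and a summed signal of 22.3 to 25.2 times the 75th percentile on fasted arrays, against 26.0 to 28.2 times on fed arrays; the part of this in any result below was not tested. Blood markers ranged over 35.4 to 60.7 times on fasted arrays and 36.1 to 61.7 times on fed arrays; Hba-a1 gave a log2 difference of -0.21 with an adjusted p of 0.486 and, with the replicate block, 0.04995. The arrays lay on 2 slides, each with 2 of each group. Fasted arrays sat at positions 1 and 3 and fed arrays at 2 and 4, so position on the slide and fasting cannot be told apart. Levels below are log2 signals minus the 75th percentile of their array, and differences are fasted minus fed on that scale. Each difference was tested with limma on all 26066 kept probes, adjusted over all of them, with a threshold of 0.05 on the adjusted p.

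Of the 10 genes, 4 rose in fasted brain (Angptl4, Mfsd2a, Apod and Slc27a1), 2 fell (Fabp5 and Fabp7) and 4 did not pass the test (Lpl, Vldlr, Cd36 and Fabp3), each gene being read by its brightest probe. Among all 16107 named genes tested, 18.4% passed, 9.44% rising and 8.93% falling. The counts given for wider lists and for cell type markers are to be read against the same percentages. Fasted and fed arrays did not overlap for 7 of the 10 genes, the 6 that passed and Vldlr, as was so for 26.9% of all genes. At the level of probes 7 of 14 passed, against 16.9% of all probes, and 8 of 14 did not overlap, against 24.8%. The median difference of the 10 genes was 0.05 (log2), against -0.01 over all genes, so the set did not shift in a single direction. Its median absolute difference was 0.24, against 0.09 over all genes. These shares describe the set and do not set it apart from others, since its genes were chosen with earlier results of these data known.

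**Figure D1:**
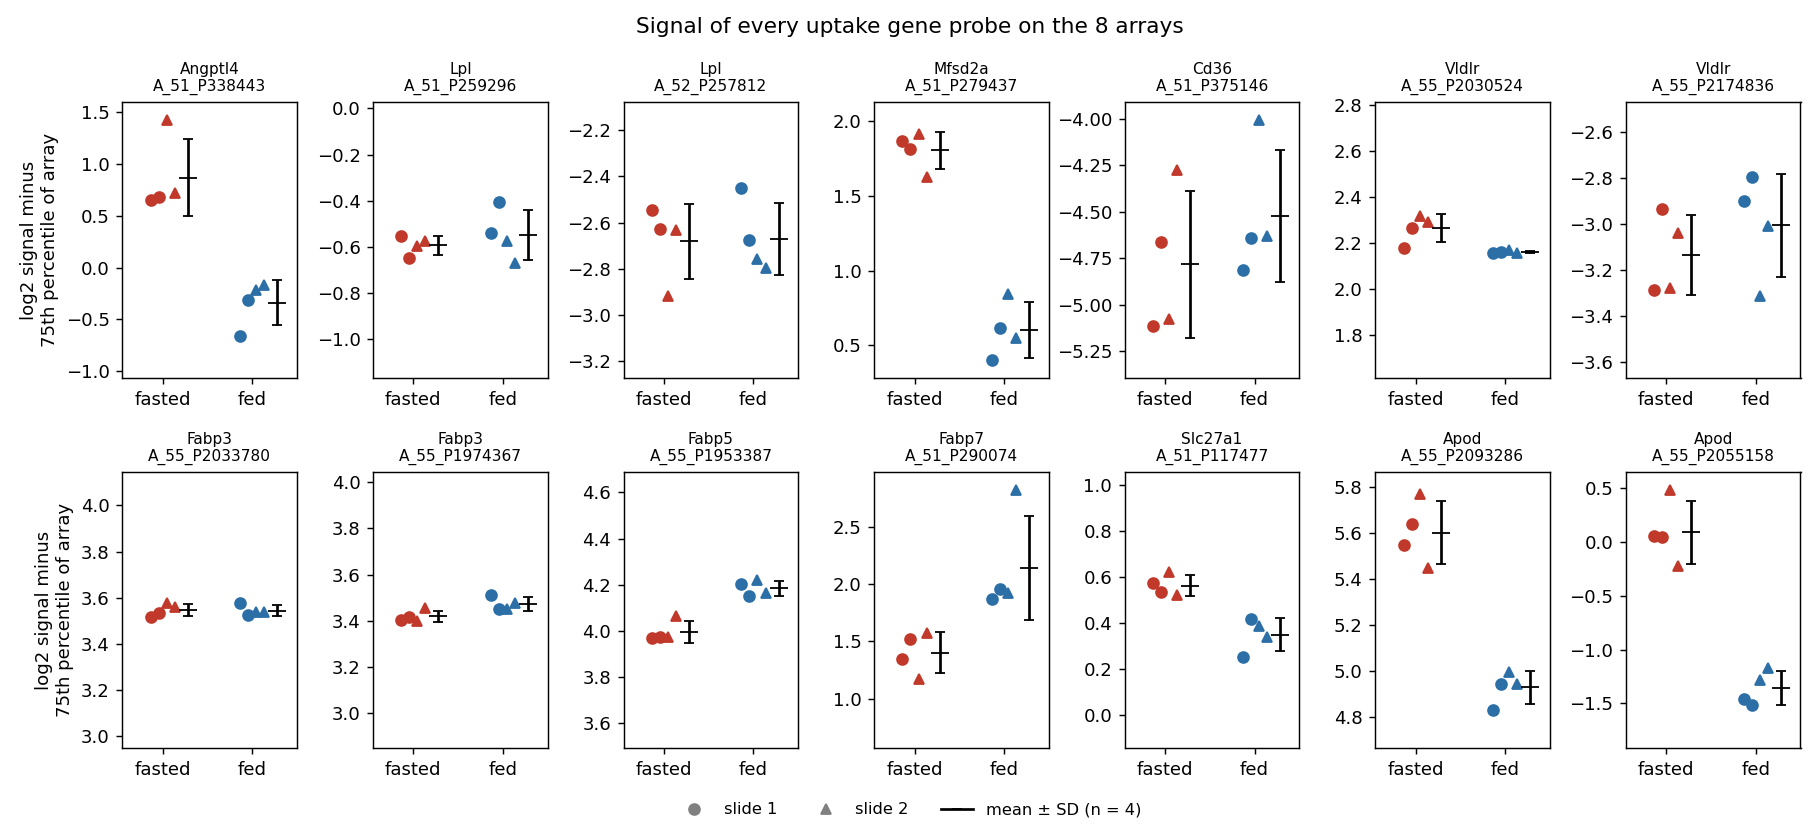
Scaled log2 signal (vertical axis, array 75th percentile at 0; the range differs between panels) of each of the 14 probes in fasted (left) and fed (right) brain; circles are arrays of slide 1, triangles of slide 2, and bars are mean ± SD of 4 arrays. Fasted points stand wholly above fed points for Angptl4, Mfsd2a, Slc27a1 and both Apod probes, and wholly below them for Fabp5 and Fabp7. The brighter Vldlr probe is also wholly above, by a narrow gap.

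Angptl4 encodes a secreted protein that inactivates lipoprotein lipase and is known in liver and adipose tissue as a fasting-induced target of PPAR transcription factors. Its level was 0.65, 0.68, 1.42 and 0.71 in fasted replicates 1 to 4, against -0.66, -0.31, -0.21 and -0.17 in fed replicates 1 to 4. Every fasted array was above every fed array, and fasted replicate 3 stood well above the other fasted arrays. The rise was 2.30-fold (95% confidence interval 1.70 to 3.12; log2 difference 1.20 ± 0.19, SE; limma adjusted p = 0.00641). Without fasted replicate 3 the log2 difference was 1.02, with an adjusted p of 0.00461. Angptl4 ranked 10th of the 16107 genes by size of rise, among 15 genes that passed and were at least 2-fold higher. Its single probe lies on the minus strand at chr17:33911880-33911939 of mm9, on which the array was designed. Of 4 adipocyte markers, Adipoq, Lep and Cfd were well above background on 0 of 8 arrays, and Plin1 on 2 fasted and 3 fed arrays.

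The enzyme that Angptl4 inhibits, lipoprotein lipase, is encoded by Lpl, and its RNA did not pass the test on either probe. The brighter Lpl probe gave -0.55, -0.65, -0.60 and -0.58 in fasted brain, against -0.54, -0.41, -0.57 and -0.67 in fed brain. The groups overlapped, and the fasted arrays lay inside the range of the fed ones. The log2 difference was -0.05 ± 0.06 (SE; limma adjusted p = 0.607), and its 95% interval, as a ratio of fasted to fed, ran from 0.885 to 1.06. The other Lpl probe lies 5217 bases upstream (chr8:71425050-71425109 against chr8:71430267-71430326, mm9) and gave a log2 difference of -0.01 ± 0.10 (adjusted p = 0.956).

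Around these genes, 11 other members of the lipoprotein lipase system were measured, of which 1 rose, 0 fell and 10 did not pass. Of all genes, 18.4% passed. The gene that rose was Apoc3, an apolipoprotein known in plasma to inhibit lipoprotein lipase, with a mean level of -2.37 ± 0.14 in fasted brain, against -2.91 ± 0.20 in fed brain (SD, 4 arrays each; difference 0.54, limma adjusted p = 0.0143). Another probe of Apoc3 pointed the other way, with a difference of -0.17 (adjusted p = 0.0523), so its direction is unsettled. Gpihbp1, which holds lipoprotein lipase at the endothelial surface, gave -0.16 (adjusted p = 0.0735). Lmf1 and Sel1l, whose products help the lipase mature, gave 0.03 and -0.12, and Lmf2 gave -0.12, none past the threshold. Lipg, which encodes endothelial lipase, was not among the kept genes.

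Vldlr encodes the very low density lipoprotein receptor, which binds particles carrying apolipoprotein E and, in the brain, also the signalling protein reelin. Its brighter probe gave 2.18, 2.27, 2.32 and 2.29 in fasted brain, against 2.16, 2.16, 2.17 and 2.16 in fed brain. The groups did not overlap, but the gap was small and the test was not passed (log2 difference 0.10 ± 0.04, SE; limma adjusted p = 0.0938). Leaving out fasted replicate 1, the lowest of the fasted arrays, brought the difference to 0.13 and the adjusted p to 0.0448. The second Vldlr probe, 2946 bases nearer the start of the gene, gave a difference of -0.13 ± 0.13 (adjusted p = 0.518), with overlapping groups.

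Among 15 other lipoprotein receptors and their regulators, 3 rose, 1 fell and 11 did not pass, where 18.4% of all genes passed. The 3 that rose were Sorl1, a sorting receptor for the amyloid precursor protein and a lipoprotein receptor relative (0.27, limma adjusted p = 0.0149), Sort1, the sorting receptor sortilin (0.20, adjusted p = 0.0147), and Lrpap1, the chaperone of this receptor family (0.11, adjusted p = 0.0393). The gene that fell was Lrp8, the apolipoprotein E receptor that also binds reelin, by 0.15 on the log2 scale (adjusted p = 0.0419). With the replicate number as a block, Lrpap1 and Lrp8 did not pass (adjusted p = 0.0629 and 0.0937). Other probes of these 4 genes did not pass: they gave 0.09 for Sorl1, 0.01 and -0.08 for Sort1, -0.06 for Lrpap1 and 0.22 for Lrp8, so that Sort1, Lrpap1 and Lrp8 each had a probe of the opposite sign to the brightest. Among the 11 genes that did not pass by their brightest probe, another probe of Scarb1, the scavenger receptor for high density lipoprotein, fell by 0.40 (adjusted p = 0.00527), where the brightest gave -0.05. The other 3 probes of Dab1, the adaptor of reelin signalling, rose by 0.18, 0.18 and 0.24 (adjusted p = 0.0365, 0.0111 and 0.0145), where the brightest gave 0.09.

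Mfsd2a, the lysophosphatidylcholine transporter of brain endothelium, rose by as much as Angptl4, with a smaller error. Its levels were 1.86, 1.81, 1.91 and 1.63 in fasted brain, against 0.40, 0.62, 0.85 and 0.55 in fed brain. The groups were far apart, with no array between them, and the gap was present on both slides (log2 difference 1.33 on slide 1 and 1.07 on slide 2). Fasted brain was 2.30-fold higher (95% confidence interval 1.96 to 2.69; log2 difference 1.20 ± 0.10, SE; limma adjusted p = 0.000967), and leaving out any single array kept the difference between 1.13 and 1.28. The probe lies on the minus strand at chr4:122624182-122624241 of mm9.

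Of 9 endothelial markers, 2 rose, 2 fell and 5 did not pass. Slco1a4, an organic anion transporter, rose by a log2 difference of 0.50, and Abcb1a, the P-glycoprotein pump, by 0.27. Tek fell, with a difference of -0.58 at low mean levels (-4.39 in fasted and -3.81 in fed brain), and Cdh5 fell, with -0.26. The 5 that did not pass were Cldn5 (0.14), Ly6c1 (0.06), Esam (0.06), Flt1 (-0.18) and Pecam1 (-0.16). The summed signal of the 9 was 18.2 to 21.0 times the array's 75th percentile on fasted arrays and 17.9 to 19.8 times on fed arrays. The part of endothelial content in the Mfsd2a difference was not tested.

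Slc27a1 encodes fatty acid transport protein 1, which couples uptake of long-chain fatty acids to their activation with coenzyme A. It gave 0.57, 0.53, 0.62 and 0.52 in fasted brain, against 0.25, 0.42, 0.39 and 0.34 in fed brain. All fasted arrays were higher than all fed arrays, by a small amount: 1.16-fold (95% confidence interval 1.08 to 1.25; log2 difference 0.21 ± 0.04, SE; limma adjusted p = 0.0169). The difference was nearly equal on the slides, at 0.22 on slide 1 and 0.21 on slide 2. The Slc27a1 probe lies at chr8:74110256-74110315 of mm9.

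Cd36 encodes a scavenger receptor that takes up long-chain fatty acids and oxidised lipoproteins. Its probe was close to background, being well above it on 2 fasted and 3 fed arrays. Levels were -5.12, -4.66, -5.08 and -4.28 in fasted brain, against -4.81, -4.64, -4.00 and -4.63 in fed brain. The groups overlapped (log2 difference -0.26 ± 0.23, SE; limma adjusted p = 0.476), and no fold is given because several arrays hold only a bound. A change in Cd36 was not detectable at this signal.

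None of 6 other genes for fatty acid transport at membranes passed the test, with 0 rising and 0 falling. They were the fatty acid transport proteins Slc27a2 (0.09), Slc27a3 (0.06), Slc27a4 (-0.05) and Slc27a5 (-0.10), the caveolar protein gene Cav2 (-0.17) and Got2 (0.08), whose product has also been described as a plasma membrane fatty acid-binding protein. Limma's adjusted p for these 6 was, from Cav2 to Slc27a4, 0.133 to 0.683, and 1, Cav2, had an unadjusted p under 0.05. Of 9 acyl-CoA synthetases, which trap fatty acids in the cell as coenzyme A esters, 2 rose, 1 fell and 6 did not pass. The share of all genes that passed was 18.4%. Acsl1 rose by a log2 difference of 0.20 (adjusted p = 0.0142) and Acsl3 by 0.25 (adjusted p = 0.0249). A second Acsl1 probe gave 0.17 (adjusted p = 0.142). The mitochondrial acetyl-CoA synthetase Acss1 fell by 0.21 (adjusted p = 0.0258).

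Of the 3 cytosolic fatty acid-binding proteins in the set, 2 fell and 0 rose by limma's adjusted p, where 8.93% of all genes fell. Fabp7, the brain lipid-binding protein of radial glia and astrocytes, had levels of 1.35, 1.52, 1.17 and 1.57 in fasted brain, against 1.87, 1.96, 1.92 and 2.82 in fed brain. All fasted arrays were lower than all fed arrays, and fed replicate 4 stood far above the other fed arrays. Fasted brain was 1.67-fold lower (95% confidence interval 1.19 to 2.35; log2 difference -0.74 ± 0.21, SE; limma adjusted p = 0.0497), which is just inside the threshold. Without fed replicate 4 the log2 difference was smaller, -0.52, with an adjusted p of 0.0213. Leaving out any of the other 7 arrays took the adjusted p to between 0.0595 and 0.109, and with slide as a block it was 0.0545.

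Of 6 astrocyte markers 0 rose and 1 fell, the water channel gene Aqp4, by 0.41 on its brightest probe and 0.60 on another (log2). The astrocyte enzyme gene Aldh1l1 gave 0.13 on its brightest probe (limma adjusted p = 0.268), but another of its probes fell by 0.37 on the log2 scale (adjusted p = 0.00396). The markers' summed signal was 137 to 149 times the 75th percentile on fasted arrays and 125 to 143 times on fed arrays. The part of astrocyte content in the Fabp7 difference was not tested. The Fabp7 probe lies at chr10:57508039-57508098 of mm9.

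Fabp5, the epidermal-type binding protein found in glia, neurons and barrier endothelium, showed a small fall. It gave 3.97, 3.97, 3.97 and 4.06 in fasted brain, against 4.20, 4.15, 4.22 and 4.16 in fed brain. No fasted array reached the lowest fed array. The level was 1.14-fold lower (95% confidence interval 1.08 to 1.21; log2 difference -0.19 ± 0.04, SE; limma adjusted p = 0.0116), and leaving out single arrays gave -0.21 to -0.18. The Fabp5 probe lies at chr3:10016185-10016244 of mm9.

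Fabp3, the heart-type binding protein that adult neurons express, gave nearly equal levels in both groups. Its brighter probe gave 3.52, 3.53, 3.58 and 3.56 in fasted brain, against 3.58, 3.52, 3.54 and 3.54 in fed brain. The ranges coincided, and the 95% interval of the ratio of fasted to fed was narrow, 0.956 to 1.05 (log2 difference 0.00 ± 0.03, SE; limma adjusted p = 0.952). The other Fabp3 probe gave -0.05 ± 0.03 (adjusted p = 0.263). The 2 probes share 51 of their 60 bases, so they are not independent measurements. Their common stretch, shown to make that overlap plain, holds the polyadenylation hexamer AATAAA (capitals):
A_55_P2033780: tgctccaaggtcAATAAAgcagaaccaagg
A_55_P1974367: tgctccaaggtcAATAAAgcagaaccaagg

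Among 6 other intracellular lipid-binding proteins measured, limma called 0 rising and 0 falling, 6 did not pass (2 had an unadjusted p under 0.05), and their median was -0.22 (log2). Crabp2, a retinoic acid carrier, gave -0.07. Rbp2 gave -0.51 with a limma adjusted p of 0.095 and was well above background on 2 fasted and 4 fed arrays; with the replicate block it passed (adjusted p = 0.0306). Of the 15 listed binding proteins 6 were not among the kept genes, Fabp1, Fabp2, Fabp4, Fabp6, Fabp9 and Pmp2, and of these Fabp4, the form of adipocytes and of some capillary endothelium, was well above background on 0 of 8 arrays.

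**Figure D2:**
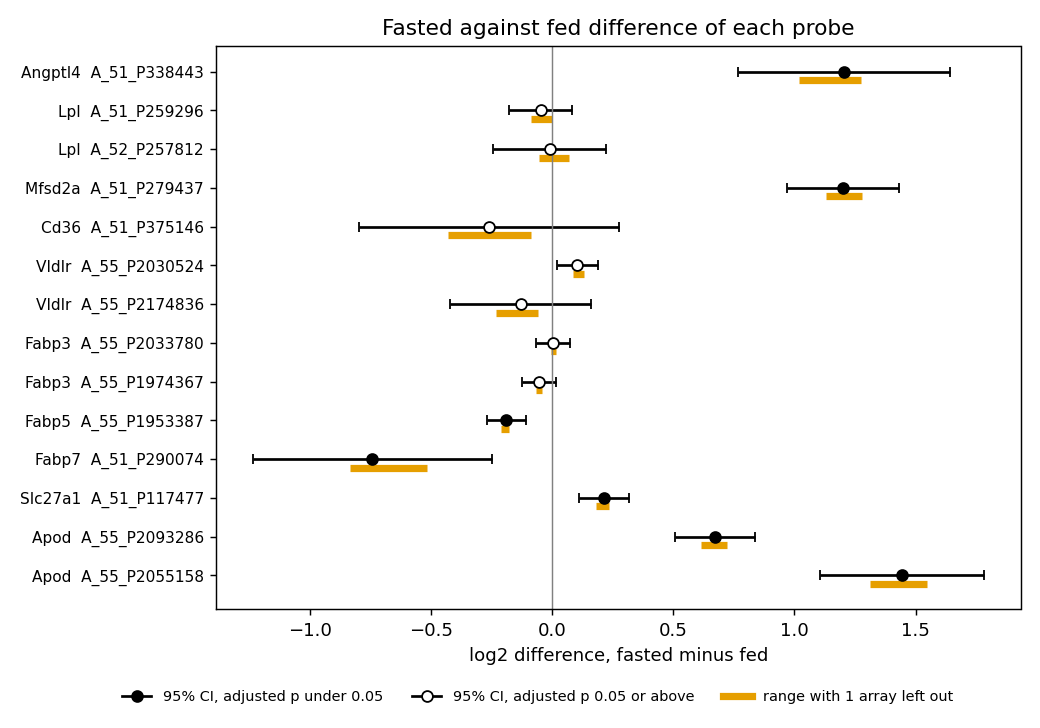
Log2 difference, fasted minus fed (horizontal axis), of each of the 14 probes with its 95% confidence interval from limma; filled points have an adjusted p under 0.05, and orange bars span the values obtained with 1 array left out. The orange bars of Angptl4, Mfsd2a, Slc27a1 and both Apod probes stay above 0, those of Fabp5 and Fabp7 stay below 0, while bars of some probes that did not pass also stay on 1 side, the brighter Vldlr probe above 0, and Cd36, the dimmer Vldlr probe and the dimmer Fabp3 probe below 0. The difference of Fabp3's brighter probe lies at 0.00.

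Apod encodes apolipoprotein D, a lipocalin that binds arachidonic acid and other small lipids and is made in brain by oligodendrocytes, astrocytes and perivascular cells. On the brighter Apod probe levels were 5.55, 5.64, 5.77 and 5.45 in fasted brain, against 4.83, 4.95, 5.0 and 4.94 in fed brain. The groups were well separated, and fasted brain was 1.59-fold higher (95% confidence interval 1.42 to 1.79; log2 difference 0.67 ± 0.07, SE; limma adjusted p = 0.00179). On the second Apod probe levels were 0.06, 0.04, 0.48 and -0.23 in fasted brain, against -1.46, -1.51, -1.28 and -1.17 in fed brain. That probe rose 2.72-fold (95% confidence interval 2.15 to 3.44; log2 difference 1.44 ± 0.15, SE; adjusted p = 0.00155), the largest difference of any of the 14 probes.

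Both Apod probes are read from the minus strand of chromosome 16, at chr16:31297206-31297265 and chr16:31296299-31296358 of mm9, and the second lies 907 bases further downstream in the direction of transcription. The brighter probe holds the hexamer AATAAA, which 12.6% of all probes hold, and the second does not. A 30-base stretch of each is given to show where they differ, with the hexamer in capitals:
A_55_P2093286: tgctagcccaatAATAAAcattttgctgat
A_55_P2055158: tgtatagtctgttgtatgcttttcatttaa
The downstream probe minus the brighter one was -5.51 ± 0.17 in fasted brain, against -6.29 ± 0.14 in fed brain (log2, SD over 4 arrays each), a difference of 0.77. All 4 fasted arrays were above all 4 fed arrays in this measure. An exact two-sided permutation test gave p = 0.0286, the smallest that 4 against 4 arrays allow, and 0.0571 after adjustment over the 4 genes with 2 probes. With 4 against 4 arrays this design could pass 0.05 after adjustment only if at least 3 of the 4 genes reached the smallest p, so missing it says little. For Fabp3 the same exact permutation test gave p = 0.0286 and 0.0571 adjusted with a difference of only -0.06, for Vldlr p = 0.171 and for Lpl p = 0.714.

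**Figure D3:**
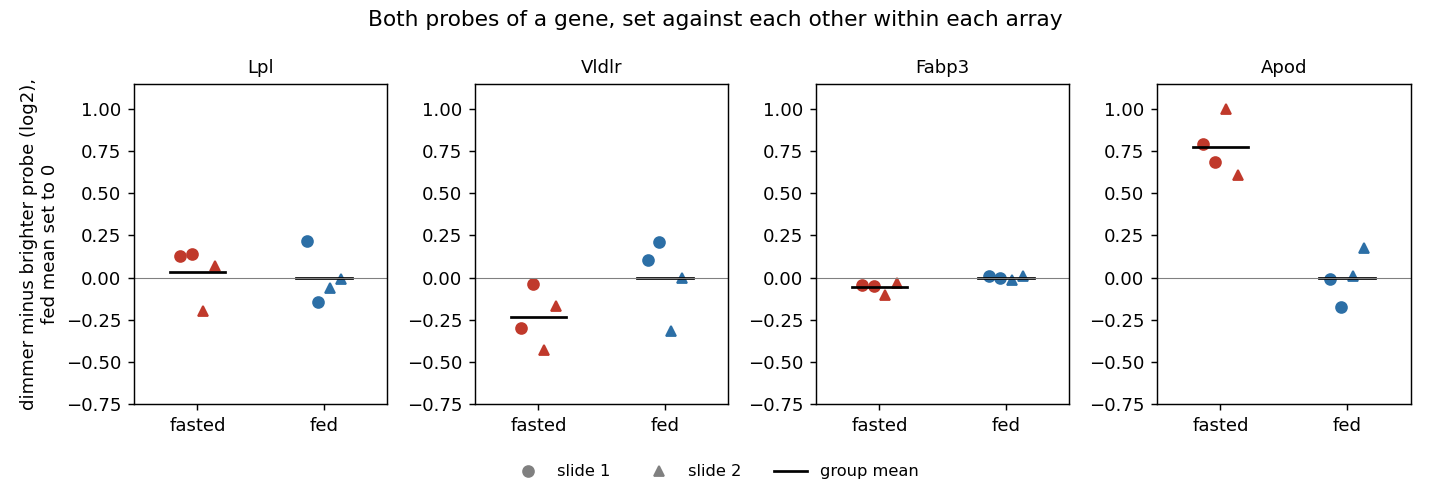
Dimmer minus brighter probe of the same gene on each array (log2, vertical axis, fed mean set to 0), fasted left and fed right, circles slide 1, triangles slide 2, lines the group means. For Apod the fasted mean is 0.77 above the fed mean and the groups do not overlap, while for Lpl and Vldlr they overlap. For Fabp3 the groups do not overlap either, with means 0.06 apart.

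Of 6 oligodendrocyte markers 0 rose and 3 fell, among them Mag by 0.27 and Cnp by 0.14 on the log2 scale. Mobp gave 0.30 on its brightest probe (limma adjusted p = 0.278), and another of its probes rose, also by 0.30 (adjusted p = 0.0264). The summed signal of the 6 markers was 85.7 to 94.6 times the 75th percentile on fasted arrays and 95.7 to 103 times on fed arrays. With the replicate block 2 of the 3 passed, Mag (adjusted p = 0.0243) and Cnp (adjusted p = 0.0487). Mural cell markers were mixed: of 6, Abcc9 and Pdgfrb rose and Acta2 and Vtn fell, and with the replicate block Pdgfrb and Vtn did not pass (adjusted p = 0.0823 and 0.0969). Of 7 other apolipoproteins and lipocalins, limma called 0 in either direction, and 2 had an unadjusted p under 0.05. Apoe, the main lipoprotein component made by astrocytes, gave a log2 difference of -0.04 ± 0.03 (SE; limma adjusted p = 0.495), Clu, which encodes clusterin, -0.02, and Ptgds, the lipocalin-type prostaglandin D synthase, -0.03. The lipocalin Lcn2 gave 0.39 with an adjusted p of 0.0673.

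Of 12 nuclear receptors and coactivators that act on genes of this kind, 1 rose, 3 fell and 8 did not pass. By comparison, 18.4% of all genes passed. Ppargc1a, a coactivator of fatty acid oxidation, rose by a log2 difference of 0.26 (limma adjusted p = 0.00776). Rxrg, a retinoid X receptor, fell by 0.22 (adjusted p = 0.00797), Nr3c1, the glucocorticoid receptor, by 0.22 (adjusted p = 0.0183) and Nr1h2, a liver X receptor, by 0.23 (adjusted p = 0.0345). Second probes of Ppargc1a, Rxrg and Nr3c1 had the same sign and did not pass, at 0.06, -0.10 and -0.15. A second probe of the liver X receptor gene Nr1h3 fell by 0.12 (adjusted p = 0.0354), where its brightest gave -0.06. The RNA of the fatty acid receptors Ppara, Ppard and Pparg gave 0.02, -0.10 and 0.02, with adjusted p of 0.824, 0.200 and 0.809. With the replicate block Rxra, at -0.32, also passed (adjusted p = 0.0339, against 0.378 without it).

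**Figure D4:**
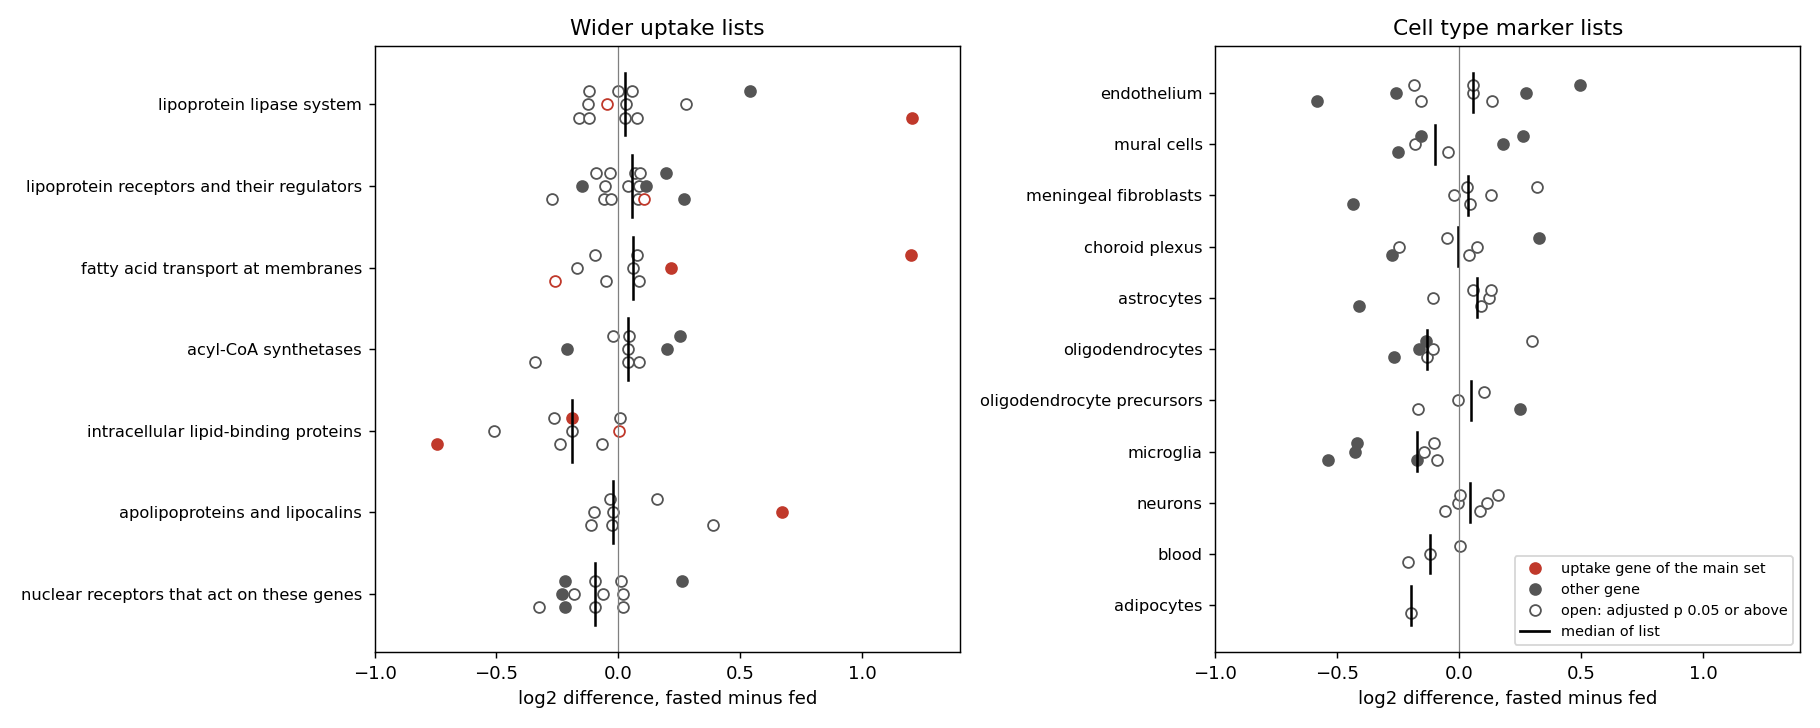
Log2 difference, fasted minus fed, of each measured gene by its brightest probe (horizontal axis), for wider uptake lists (left) and cell type markers (right); red points are the uptake genes described here, filled points passed the test, and black ticks are list medians. Angptl4 and Mfsd2a lie to the right of every other gene of their lists, at 1.20, and the binding proteins have the lowest median of the uptake lists, -0.19.

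The genes whose profiles over the 8 arrays came closest to each changed uptake gene were found by the root mean square distance between profiles centred on their own means, over 16096 other named genes. Among the 3 nearest to Angptl4 were Gpr179 (distance 0.18 log2 units) and the uptake gene Mfsd2a (0.22), but Angptl4 was not among the 3 nearest to Mfsd2a. Profiles were not scaled, so genes with differences of like size lie close together, and Angptl4 and Mfsd2a each differed by 1.20. Nearest to Mfsd2a were Glp2r, the receptor of glucagon-like peptide 2 (0.11), Pla2g3, a secreted phospholipase (0.11), and Etnppl, which breaks down phosphoethanolamine (0.14). Slc27a1 had Acaa2, the mitochondrial thiolase of fatty acid oxidation, as its nearest profile (0.03), then Paox and Hscb. Apod was nearest to Synpo2 (0.06), Adgrf5 (0.06) and the metallothionein Mt2 (0.08). For Fabp5 they were Dtnb, Ndufa4l2 and Lonrf1 (0.02 each), and for Fabp7 Rhcg, Smtnl2 and Tmprss5 (0.15 to 0.18). These distances describe 8 arrays in 2 groups and carry no test.

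Promoters from RefSeq (build GRCm38.p6, 250 bases before to 50 bases after an annotated start) were found for 7 of the 10 genes, in 10 versions, and Angptl4, Lpl and Fabp5 had no entry. Both strands were searched for the palindromic glucocorticoid receptor element and its hexamer TGTTCT, the PPAR direct repeat, spaced by a single base, and its hexamer AGGTCA, the FOXO core GTAAACA, the TATA box TATAAA and the CCAAT box. The palindrome, the direct repeat, the FOXO core and the TATA box had 0 matches in the 10 promoters; they occur in 0.00913%, 0.0396%, 3.65% and 13.6% of all 32851 promoters. The hexamer AGGTCA, in 16.3% of all promoters, was found once each in those of Mfsd2a, Cd36 and Fabp7. TGTTCT, in 19.0%, was found only in the first of the Vldlr promoters searched, at -18 and 25 from the start. CCAAT, in 37.4% of all promoters, matched in Mfsd2a, Cd36, Fabp7, Vldlr and Slc27a1.

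The promoters of Mfsd2a and Apod, which rose most among genes with an entry, and of Fabp7, which fell most, are printed for comparison. Capitals mark AGGTCA and CCAAT on either strand. They are at chr4:122961139-122961438 (minus strand), chr16:31314759-31315058 (minus strand) and chr10:57784673-57784972 (plus strand) of GRCm38.p6, with G and C making up 60.3%, 37.3% and 54.0% of the bases.
Mfsd2a: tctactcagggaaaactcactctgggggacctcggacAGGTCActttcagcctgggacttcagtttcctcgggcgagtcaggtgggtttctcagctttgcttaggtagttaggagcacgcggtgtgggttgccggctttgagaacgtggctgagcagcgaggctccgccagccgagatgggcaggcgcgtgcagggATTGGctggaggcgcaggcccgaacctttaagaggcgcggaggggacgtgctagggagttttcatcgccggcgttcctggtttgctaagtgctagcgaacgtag
Apod: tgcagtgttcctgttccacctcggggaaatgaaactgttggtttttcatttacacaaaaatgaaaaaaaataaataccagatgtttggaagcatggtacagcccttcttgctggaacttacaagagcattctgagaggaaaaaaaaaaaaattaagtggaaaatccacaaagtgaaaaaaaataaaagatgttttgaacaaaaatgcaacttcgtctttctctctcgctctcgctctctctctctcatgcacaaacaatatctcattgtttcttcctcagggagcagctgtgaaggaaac
Fabp7: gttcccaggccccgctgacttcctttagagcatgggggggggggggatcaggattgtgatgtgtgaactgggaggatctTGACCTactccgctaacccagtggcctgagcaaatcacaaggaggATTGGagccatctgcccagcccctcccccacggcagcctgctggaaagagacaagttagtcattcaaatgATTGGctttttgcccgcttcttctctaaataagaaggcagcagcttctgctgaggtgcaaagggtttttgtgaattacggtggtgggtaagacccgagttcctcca
The Mfsd2a promoter holds AGGTCA at -213 and CCAAT, on the opposite strand, at -54. In Fabp7 the matches are AGGTCA at -171 and CCAAT at -126 and -56, all on the opposite strand. Apod has 0 matches to any of the motifs, and its window is rich in runs of A and of alternating C and T. A match is a description of the letters only.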

How the data were processed

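Brains of mice fasted or fed for 17 h were read on 8 single-colour Agilent arrays, 4 per group, with groups taken from the sample titles. In the deposited scanner files spot brightness is an intensity; per the file headers it was detrended spatially and multiplicatively in Feature Extraction 11.0.1.1. The submitters' processing notes name version 10.10.1.1. Values in the table deposited for the series are a linear ratio, which equals the signal over the array's 75th percentile up to a constant per probe (median spread over arrays 0.000179 on the log2 scale); the baseline behind that constant is unknown, and column medians were 0.970, 0.993, 0.973 and 0.987 on the fasted arrays (replicates 1 to 4), against 0.987, 1.02, 0.991 and 1.02 on the fed arrays. That table was used in a single alternative.

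From the log2 of each processed signal the log2 of that array's 75th percentile was subtracted (1651 to 1944 intensity units over non-control spots). Spots flagged as outliers (128 to 217 per array) were left out, spots of a probe were averaged, and probes well above background on at least 4 of 8 arrays were kept, 26066 of 39429; 13 of these were fitted with a flagged array left out, and no uptake gene probe was among them. No spot was saturated. Groups were compared with limma 3.58.1 under R 4.3.3, with lmFit and a two-sided eBayes test and Benjamini-Hochberg adjustment over kept probes. A gene took its brightest kept probe. Names came from the files, updated through RefSeq accessions (assembly GRCm38.p6; 27427 probes matched). Where a probe falls within its transcript's exons was not analysed here. The procedure was tested on simulated data.

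The uptake genes, wider lists and alternatives were chosen with earlier results of these data known. Genes named beside the 10 are the members of wider lists past the threshold (up to 4 per list), the receptors Ppara, Ppard, Pparg and Nr3c1, the 3 nearest profiles of each changed gene, and, outside the rule, list members that did not pass, named for their role. Some genes that this rule names are not reported here.

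The design had no block. After subtracting group means, a fasted array and the fed array of the same number had a correlation of 0.179 to 0.291, above 0.1 in all 4 pairs, and such pairs occupy neighbouring positions of 1 slide. Arrays of 1 slide with different numbers correlated at 0.0512 to 0.272, so the check does not separate pairing by number from the slide; the numbers are from the titles. The replicate block is given beside results whose call it changes.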

Additional observations from a re-analysis of the deposited data

Results flagged for a closer look

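Each of the 28 groups of 4 values (14 probes, fasted and fed) was searched for a single array whose gap to the next, as a share of the group's range, exceeded Dixon's 95% critical value, which chance gives in about 1 of 20 groups, or 1.4 of the 28, and 4 were found. Angptl4 in fasted replicate 3 was 1.42, where the other fasted arrays averaged 0.68. Fabp7 in fed replicate 4 was 2.82, against a mean of 1.92 in the other fed arrays. Fabp5 in fasted replicate 4 was 4.06, against 3.97 in the others. The brighter Vldlr probe in fed replicate 3 was 2.17, against 2.16 in the others, a gap made visible by fed arrays that nearly coincide.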

How the results depend on the processing

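Angptl4, Mfsd2a, Slc27a1, Fabp5 and both Apod probes kept their direction under all 18 alternatives run and stayed past the threshold under all 16 that used both slides together, among them the replicate block, which changed no call of the 10 genes. Within slide 1 and within slide 2, with 2 arrays per group, limma called 0 genes in all, so 0 uptake genes were higher and 0 lower, and without adjustment 3732 and 2486 genes had p under 0.05. Fabp7 kept its direction under the 18 and was past the threshold under 5 of the 16. The count of uptake genes that fell was 1 rather than 2 with median scaling, normexp background correction, no filter on dim probes, slide as a block and the mean of a gene's probes. It was 1 to 2 with single arrays left out, and the count that rose was 4 to 5, the fifth being Vldlr without fasted replicate 1. Over all genes 2960 passed, against 1971 with normexp, 1622 without the filter and 1870 to 2556 with single arrays left out (1870 without fasted replicate 1 and 1963 without fasted replicate 2), 2574 with the replicate block and 3316 with slide as a block. Cd36 was not tested where a probe had to be well above background on all 8 arrays. No result that passed the threshold in either fit changed sign, but some that did not pass did: Vldlr was -0.01 with the mean of its probes, against 0.10, the brighter Lpl probe was 0.03 within slide 2, against -0.05, and the brighter Fabp3 probe was -0.02 within slide 1, against 0.00. The number of arrays limits precision, and Cd36 is further limited by signal close to background.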
